A study of Mus musculus with 12 samples.

Results

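The chromatin modifier genes examined here are 10 genes that are recurrently mutated in human B cell lymphoma or that act with the mutated ones in germinal center B cells: Ezh2, Kmt2d, Kmt2c, Crebbp, Ep300, Hdac3, Kdm1a, Tet2, Dnmt1 and Dnmt3a. A peak was counted to a gene when that gene had the nearest protein-coding span within 50 kb of the peak's midpoint. By this rule 70 of 68689 peaks belonged to the 10 genes, between 1 at Hdac3 and 15 at Ezh2. The data are Omni-ATAC-seq counts, in which the Tn5 transposase cuts and tags accessible DNA, from germinal center B cells sorted from mouse spleen. All mice were C57BL/6 and 8 to 10 weeks old. The groups were HOMO CB and HOMO CC from Pbrm1-/- mice, and WT CB and WT CC from Pbrm1+/+ mice, with 3 libraries in each of the 4 groups. CB and CC are the labels' names of the sorted populations and the labels do not spell them out. Pbrm1AID, the name at the head of each count column, is not explained anywhere in the labels, so whether the deletion was restricted to a cell type by a Cre driver is not known. Nothing in the labels says that libraries came from separate mice, so p-values measure the spread between these libraries, which may be technical.

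Germinal center B cells divide rapidly and mutate their antibody genes before they leave as memory or plasma cells, and on the way enhancers and promoters open and close in order. Writers of histone marks (Ezh2, Kmt2d, Kmt2c, Crebbp, Ep300), erasers (Hdac3, Kdm1a) and enzymes of DNA methylation (Tet2, Dnmt1, Dnmt3a) set that order, and mutations in several of them are common in human follicular and diffuse large B cell lymphoma. Pbrm1 encodes a bromodomain subunit found in PBAF, one of the SWI/SNF nucleosome remodelers. The comparisons asked whether accessibility at the modifier genes differed when Pbrm1 was lost and between the sorted populations.

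The shallowest library, HOMO CC 1, held 6431354 counts, and the deepest, HOMO CB 3, held 45590454 (7.09 times as many), with a mean count per peak of 93.6 to 664. Of 10 germinal center B cell markers 9 had a peak at a gene start or end (Mef2b had none), with 48.7 to 50.2 CPM per marker in HOMO CB against 44.2 to 47.1 in WT CB, and 44.7 to 52.1 in HOMO CC against 42.0 to 43.9 in WT CC. CPM per marker is the summed CPM of these peaks divided by the number of all listed markers, also those without a peak. Where most markers lack a peak, the peaks that exist were therefore more open than this value. Of 8 T cell markers 1 had such a peak, at 2.29 to 3.04 CPM per marker, while Cd3e, Cd3g, Cd4, Cd8a, Cd28, Lck and Zap70 had none. Natural killer markers had one at 1 of 5 (0.67 to 0.981 CPM per marker). Myeloid markers had one at 2 of 6, with 6.66 to 7.23 CPM per marker in HOMO CB against 5.58 to 6.55 in WT CB, and 5.52 to 6.3 in HOMO CC against 4.37 to 6.12 in WT CC. Erythroid markers had one at 2 of 5, with 1.77 to 2.04 CPM per marker in HOMO CB against 2.29 to 3.27 in WT CB, and 1.56 to 1.74 in HOMO CC against 2.11 to 2.39 in WT CC. Csf1r, Itgam, Gata1 and Ncr1 had none. Markers of naive and follicular B cells had one at 6 of 7 (26.0 to 29.9). Plasma cell markers had one at 5 of 5, with 52.5 to 53.4 CPM per marker in HOMO CB against 59.9 to 61.1 in WT CB, and 50.4 to 50.7 in HOMO CC against 54.2 to 56.4 in WT CC. These ranges did not overlap between the genotypes for germinal center, plasma cell and erythroid markers in both populations and for myeloid markers in CB. Of the peaks behind them, those called between genotypes were 0 of 13 at germinal center markers in CB and 1 in CC, 1 of 12 at plasma cell markers in CB and 0 in CC, 1 of 2 at erythroid markers in CB and 0 in CC, and 1 of 3 at myeloid markers in each population. Their part in the genotype results below was not tested. Xist, the RNA gene of the inactive X chromosome, had 4.35 CPM in WT CB 2 and 5.84 CPM in WT CC 2, against 10.8 to 24.8 CPM in the other libraries. Results are therefore also given without both WT libraries numbered 2 where that ends a call. The start of Pbrm1 was open in both genotypes (log2 fold change -0.04 in CB and -0.09 in CC), which does not check the genotypes, since the labels do not say which part of the gene was deleted.

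All 10 genes were accessible at a gene start or end in every library. Of the 70 peaks 19 lay within 1 kb of an annotated transcription start, 3 within 1 kb of another gene end, 27 elsewhere inside a gene span and 21 outside it. The annotation used here gives gene spans and starts but not exons or introns. Levels are TMM-scaled CPM, the counts of a peak relative to the counts in all peaks of its library, and since every peak is 501 bp wide they can be compared between peaks. The strongest start peak of the 10 genes was that of Ezh2 (chr6:47594848-47595348, mm10), the catalytic subunit of the Polycomb repressive complex PRC2, which methylates histone H3 at silenced genes. It had 73.5, 75.0 and 74.5 CPM in HOMO CB, against 70.3, 68.5 and 80.5 CPM in WT CB. In HOMO CC it had 71.9, 77.1 and 73.2 CPM, against 64.7, 63.7 and 75.8 CPM in WT CC. These ranges overlapped between the genotypes in both populations. Next came the start of Ep300 (chr15:81585830-81586330), an acetyltransferase of enhancers, with 58.5, 56.6 and 58.0 CPM in HOMO CB against 56.7, 53.9 and 61.7 CPM in WT CB. In CC it had 55.2, 49.6 and 56.2 CPM in HOMO libraries against 48.3, 54.1 and 54.5 CPM in WT libraries. The log2 fold change there was 0.00 (SE 0.09, edgeR adjusted p = 0.994) in CB, and in CC it was 0.03 (SE 0.09, adjusted p of 0.897).

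**Figure D1:**
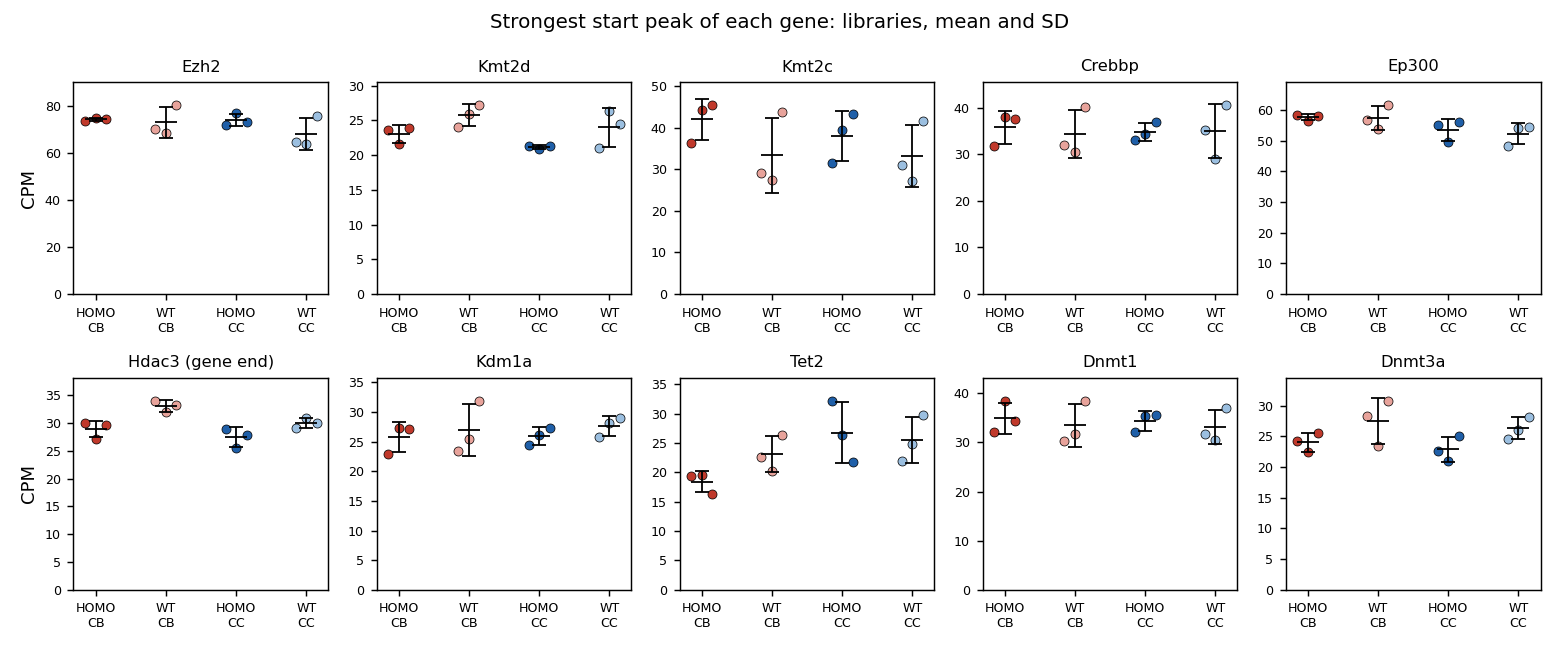
Accessibility in CPM (vertical axis, from 0) of the strongest start peak of each of the 10 genes in the 4 groups, with 1 point per library, the mean as a dash and the SD as a bar. Hdac3 has a gene-end peak in its panel because no start of it was in the promoter table. Ezh2 and Ep300 have the highest peaks, and the HOMO and WT points overlap at Ezh2, Ep300, Crebbp, Kdm1a and Dnmt1 in both populations.

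The other strongest start peaks were lower. Averaged over the 12 libraries they held 36.7 CPM at Kmt2c, 35.0 at Crebbp, 34.0 at Dnmt1, 26.6 at Kdm1a, 25.2 at Dnmt3a and 23.5 at both Kmt2d and Tet2. The Hdac3 peak, at a gene end, averaged 29.9 CPM. Neighbours in this order mostly overlapped in their library ranges. Away from starts the most open sites were an Ep300 peak 1057 bp upstream of the start (chr15:81584907-81585407, 42.1 CPM on average), a second Ep300 peak 9005 bp upstream (chr15:81576959-81577459, 39 CPM), an Ezh2 peak 41615 bp upstream of the start (chr6:47636395-47636895, 37.0 CPM) and a Tet2 peak 38644 bp upstream (chr3:133582784-133583284, 35.2 CPM). Without the replicate block and the depth covariate described below, none of these 4 was called in any comparison of the 4 groups. With log2 library total as a covariate, the Ep300 peak 9005 bp upstream was called higher in HOMO. The log2 fold change was 0.29 in CB (edgeR adjusted p = 0.0437) and 0.30 in CC (adjusted p = 0.0457). The weakest of the 70 peaks averaged 1.89 CPM and lay inside Crebbp.

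The promoters of 4 genes are shown, chosen by their start peaks. Tet2 and Kmt2d had, among the 19 start peaks, those with the smallest p between HOMO CB and WT CB, and Ezh2 and Ep300 had the strongest. Each sequence is the RefSeq window (GRCm38.p6) from 250 bases before to 50 bases after the start, read 5′ to 3′ on the gene's strand. Capitals mark matches to 2 motifs on either strand, the GC box, GGGCGG, which reads CCGCCC on the other strand, and the CCAAT box, which reads ATTGG there.
Tet2, chr3:133544341-133544640, minus strand: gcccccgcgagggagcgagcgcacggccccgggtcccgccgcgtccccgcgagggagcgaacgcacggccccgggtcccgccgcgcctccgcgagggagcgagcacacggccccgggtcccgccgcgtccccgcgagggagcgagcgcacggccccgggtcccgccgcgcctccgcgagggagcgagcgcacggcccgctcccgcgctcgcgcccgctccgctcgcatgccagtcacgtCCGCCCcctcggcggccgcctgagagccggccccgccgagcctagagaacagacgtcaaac
Kmt2d, chr15:98871156-98871455, minus strand: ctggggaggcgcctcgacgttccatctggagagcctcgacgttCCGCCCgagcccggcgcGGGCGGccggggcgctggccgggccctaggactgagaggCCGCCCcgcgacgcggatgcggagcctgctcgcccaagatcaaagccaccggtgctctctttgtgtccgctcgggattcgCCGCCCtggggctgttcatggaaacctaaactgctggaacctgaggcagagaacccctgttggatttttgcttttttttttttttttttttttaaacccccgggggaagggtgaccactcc
Ezh2, chr6:47594981-47595280, minus strand: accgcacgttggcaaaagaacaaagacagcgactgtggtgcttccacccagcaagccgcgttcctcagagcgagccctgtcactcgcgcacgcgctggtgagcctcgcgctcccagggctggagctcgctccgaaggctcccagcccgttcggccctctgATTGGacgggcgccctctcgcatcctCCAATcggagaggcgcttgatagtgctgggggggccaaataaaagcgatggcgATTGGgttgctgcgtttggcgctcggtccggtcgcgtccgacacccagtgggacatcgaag
Ep300, chr15:81585964-81586263, plus strand: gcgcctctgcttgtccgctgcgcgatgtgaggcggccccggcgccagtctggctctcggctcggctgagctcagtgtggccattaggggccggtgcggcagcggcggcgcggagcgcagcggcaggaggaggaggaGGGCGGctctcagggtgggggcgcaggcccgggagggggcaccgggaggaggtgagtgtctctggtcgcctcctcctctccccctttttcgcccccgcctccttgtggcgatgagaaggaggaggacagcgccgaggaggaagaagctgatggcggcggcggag

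All 4 windows were rich in G and C. Tet2 had 81.3% GC and 57 CpG, Ep300 72.3% and 30, Ezh2 64.3% and 31, and Kmt2d 62.7% and 27, against medians of 52.7% and 7 CpG over 32851 promoter windows of the same length. The Ezh2 window held 3 CCAAT boxes at -90, -64 and -11 relative to the start and no GGGCGG. The Kmt2d window held 4 GGGCGG matches, the Tet2 window 1 and the Ep300 window 1. The Tet2, Ezh2 and Ep300 windows overlapped the strongest start peak of their gene, and the Tet2 peak that differed between genotypes lay further upstream. The Kmt2d window lay under the weaker of its start peaks, the one that differed between genotypes. Over all 13 windows of the 9 genes in the promoter table (Hdac3 is not in it), GGGCGG was found in 9 windows, and in 35.7% of all windows. The Kmt2c promoter held the most, with 12 matches. CCAAT was found in 4 of the 13, and in 37.4% of all. Among 5 further motifs searched on both strands, TGCGCA was found in 2 of the 13 windows (7.76% of all) and CACGTG in 1 (7.15%). CCGGAA (14.9% of all), TTCCCGC (4.6%) and TATAAA (13.6%) were in none of the 13. A match describes the letters only and is not evidence of a bound factor.

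The first comparison set HOMO against WT. In CB 2 of the 70 peaks rose, 1 each inside Ezh2 and Dnmt1, and 2 fell, 1 each at the start of Tet2 and of Kmt2d. Among all 68689 peaks 0.779% rose and 3.85% fell, so the members' 2.86% in each direction is read against these shares. In CC none rose and 3 fell, 2 at Kmt2d and 1 at the start of Kmt2c, where 0.578% of all peaks rose and 2.17% fell. Calls are at an edgeR quasi-likelihood p adjusted over all peaks (Benjamini-Hochberg) under 0.05. At an unadjusted p under 0.05, 11 member peaks were higher and 8 lower in CB, and 5 higher and 6 lower in CC. Over all 68689 peaks these counts were 4984 higher and 8566 lower in CB, and 4958 higher and 6837 lower in CC. DESeq2 called 2 higher and 4 lower in CB, where it called 1.36% and 4.84% of all peaks, and 0 higher and 4 lower in CC, where it called 1.05% and 3.48%. In bulk libraries, fewer cells with an open site and a site less open in each cell cannot be told apart.

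The counts changed when single libraries were left out, for the member peaks and for all peaks. In CB, the number of higher peaks was 0 without HOMO CB 1, HOMO CB 2, HOMO CB 3, WT CB 1 or WT CB 3, and 1 without HOMO CC 2, HOMO CC 3, WT CB 2, WT CC 1 or WT CC 2. The number of lower peaks in CB was 0 without HOMO CB 2, HOMO CB 3 or WT CB 2, 1 without WT CB 1, 4 without HOMO CC 1, WT CB 3 or WT CC 3, and 5 without HOMO CB 1. In CC the number of lower peaks was 0 without HOMO CC 2 or HOMO CC 3, and 1 without HOMO CB 2, WT CB 1, WT CB 2, WT CC 1 or WT CC 2. Over all peaks the number of lower peaks in CB was 2643 with all libraries, 306 without HOMO CB 2, 675 without HOMO CB 3 and 606 without WT CB 1. The number of higher peaks in CB was 535 with all libraries, 35 without HOMO CB 2 and 87 without WT CB 1. In CC the number of lower peaks over all peaks was 1492 with all libraries, 11 without HOMO CC 2, 177 without HOMO CC 3 and 281 without WT CC 1.

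Kmt2d, which adds methyl groups to histone H3 at enhancers, had the most called genotype differences. The peak 197 bp from its start (chr15:98871152-98871652) had 14.1, 10.7 and 9.48 CPM in HOMO CB, against 18.1, 17.6 and 17.4 CPM in WT CB. In CC it had 13.3, 8.82 and 8.67 CPM in HOMO libraries against 14.4, 15.9 and 15.8 CPM in WT libraries. Each HOMO library lay below every WT library in both populations, and in each HOMO group library 1, the shallowest, was the highest. It fell by 0.67 in CB (log2 scale, SE 0.17, edgeR adjusted p = 0.0264) and by 0.65 in CC (SE 0.17, adjusted p = 0.0454). With log2 library total as a covariate it fell by 0.61 in CB (adjusted p = 0.00317) and by 0.64 in CC (adjusted p = 0.00346), and without both HOMO libraries numbered 1 the log2 fold changes were -0.81 and -0.82. The CB call was lost without HOMO CB 2, HOMO CB 3, WT CB 1, WT CB 2 or both WT libraries numbered 2, with an adjusted p of 0.0595 to 0.15 without a single one of them. The CC call was lost without any of HOMO CB 2, HOMO CC 2, HOMO CC 3, WT CB 1, WT CB 2, WT CC 1, WT CC 2 and WT CC 3 (adjusted p = 0.0606 to 0.28), and without both WT libraries numbered 2.

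A second Kmt2d peak lay inside the gene, 1254 bp from the start (chr15:98869701-98870201). It had 4.58, 4.28 and 4.39 CPM in HOMO CC, against 9.16, 9.81 and 8.16 CPM in WT CC. It fell by 1.04 there (SE 0.20, adjusted p = 0.011), with no overlap between the groups. In CB it had 7.86, 5.53 and 5.87 CPM in HOMO libraries against 10.0, 8.13 and 6.57 CPM in WT libraries, which overlapped (-0.40, SE 0.19, adjusted p = 0.26). The CC call was lost without HOMO CC 2 or HOMO CC 3 (adjusted p = 0.0595 to 0.101), and also without both WT libraries numbered 2. The strongest Kmt2d start peak lay 801 bp upstream of the annotated start but inside the gene span, 2071 bp from its end. It had log2 fold changes of -0.16 in CB and -0.19 in CC (adjusted p = 0.461 and 0.437).

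Kmt2c, the close relative of Kmt2d, had 1 called peak, 451 bp from its start (chr5:25498082-25498582). In CC it had 12.7, 9.53 and 11.4 CPM in HOMO libraries, against 14.6, 16.1 and 17.0 CPM in WT libraries. In CB it had 14.0, 12.3 and 13.2 CPM in HOMO libraries, against 16.4, 16.6 and 18.6 CPM in WT libraries. HOMO lay below WT without overlap in both, and it fell by 0.53 in CC (SE 0.14, adjusted p = 0.0493), while the difference of -0.40 in CB did not pass the test (SE 0.14, adjusted p = 0.104). The call was lost without any of HOMO CB 2, HOMO CB 3, HOMO CC 2, HOMO CC 3, WT CB 1, WT CB 2, WT CC 1, WT CC 2 and WT CC 3 (adjusted p = 0.0614 to 0.315), and without both WT libraries numbered 2. The strongest Kmt2c peak away from starts (chr5:25302383-25302883, 196150 bp from the start, 8.06 CPM on average) had 10.6, 8.25 and 7.83 CPM in HOMO CB against 7.81, 11.7 and 5.14 CPM in WT CB (0.14, SE 0.26, adjusted p = 0.812). The stronger Kmt2c start peak, 371 bp upstream (chr5:25498904-25499404), had the opposite sign, with 0.33 in CB and 0.21 in CC (adjusted p = 0.344 and 0.622).

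Tet2, which oxidises methylated cytosine on the way to its removal, fell at a peak 674 bp upstream of its annotated start in CB (chr3:133544814-133545314). The Tet2 gene span reaches beyond that start, and the midpoint of this peak lay inside the span, 72 bp from its end. That peak had 8.64, 11.7 and 11.2 CPM in HOMO CB, against 14.2, 19.1 and 16.1 CPM in WT CB. It fell by 0.60 (SE 0.15, adjusted p = 0.0228). The groups did not overlap. In CC the values were 20, 16.8 and 18.1 CPM in HOMO libraries against 19.6, 20.5 and 22.0 CPM in WT libraries, which overlapped (-0.19, SE 0.14, adjusted p = 0.531). The CB call was lost without HOMO CB 2, HOMO CB 3 or WT CB 2 (adjusted p = 0.0722 to 0.0866) and without both WT libraries numbered 2 (adjusted p = 0.113). At the start itself (chr3:133544068-133544568) HOMO CB had 19.4, 19.6 and 16.3 CPM and WT CB 22.7, 20.3 and 26.3 CPM, a difference of -0.35 that did not pass the test (SE 0.15, adjusted p = 0.196).

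**Figure D2:**
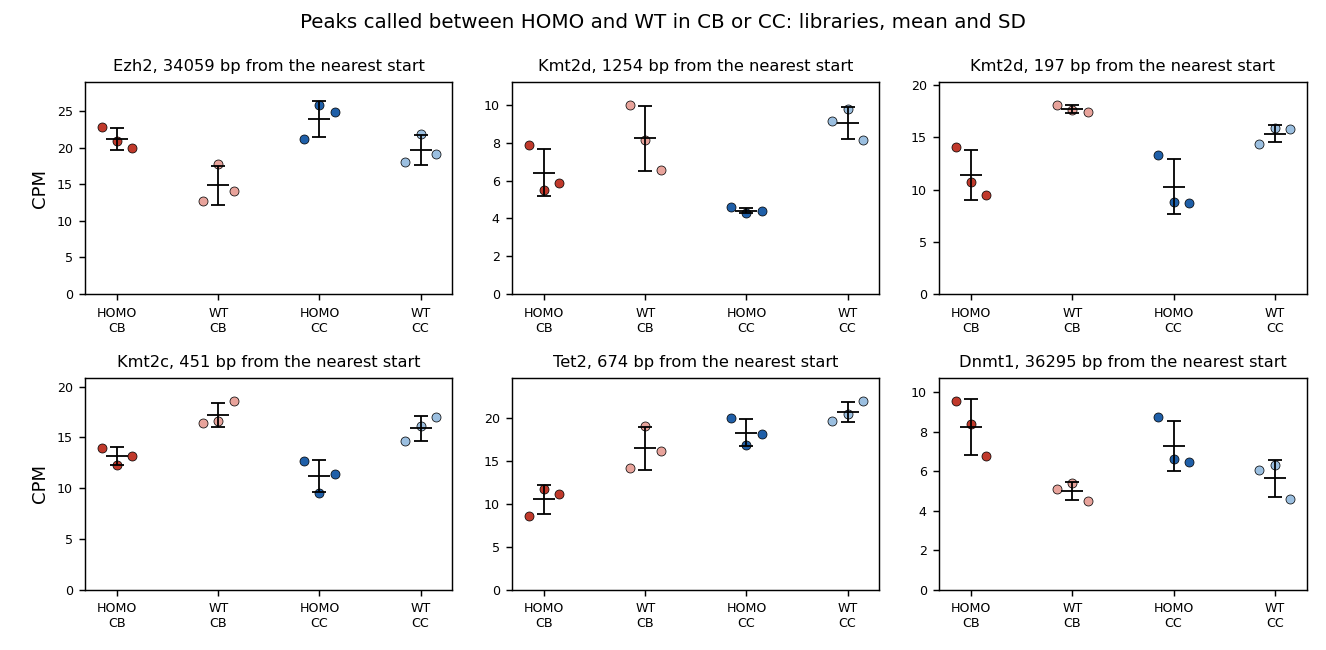
CPM (vertical axis, from 0) at the 6 peaks called between HOMO and WT in CB or in CC, with 1 point per library, the mean as a dash and the SD as a bar. HOMO points lie below WT points at both Kmt2d peaks in CC, and the Ezh2 and Dnmt1 panels show HOMO CB above WT CB.

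The peaks that rose in HOMO CB lay inside genes. At Ezh2 the peak 34059 bp from the start (chr6:47560721-47561221) had 22.8, 20.9 and 19.9 CPM in HOMO CB, against 12.7, 17.8 and 14.0 CPM in WT CB, and the groups did not overlap. It rose by 0.53 (SE 0.14, adjusted p = 0.0333). In CC it had 21.1, 25.8 and 24.8 CPM in HOMO libraries and 18, 21.9 and 19.1 CPM in WT libraries (0.30, SE 0.14, adjusted p = 0.265). The CB call was lost without HOMO CB 1, HOMO CB 2, HOMO CB 3, WT CB 1 or WT CB 3 (adjusted p = 0.0644 to 0.166). Dnmt1, which copies DNA methylation onto new strands after replication, rose at a weak peak 36295 bp from the nearest start (chr9:20916078-20916578). It had 9.56, 8.38 and 6.75 CPM in HOMO CB, against 5.12, 5.38 and 4.51 CPM in WT CB, a rise of 0.70 (SE 0.20, adjusted p = 0.048). The groups did not overlap there, nor in CC, where the difference was 0.34 (SE 0.20, adjusted p = 0.41). The call held only without HOMO CC 1 or WT CC 3 among single libraries left out, and was lost without each of the other 10 (adjusted p = 0.0549 to 0.194), with the HOMO libraries numbered 1 removed, and with the WT libraries numbered 2 removed. The Dnmt1 start peak (chr9:20952351-20952851) averaged 35.0 ± 3.11 CPM in HOMO CB and 33.5 ± 4.31 CPM in WT CB (SD, n = 3 each).

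**Figure D3:**
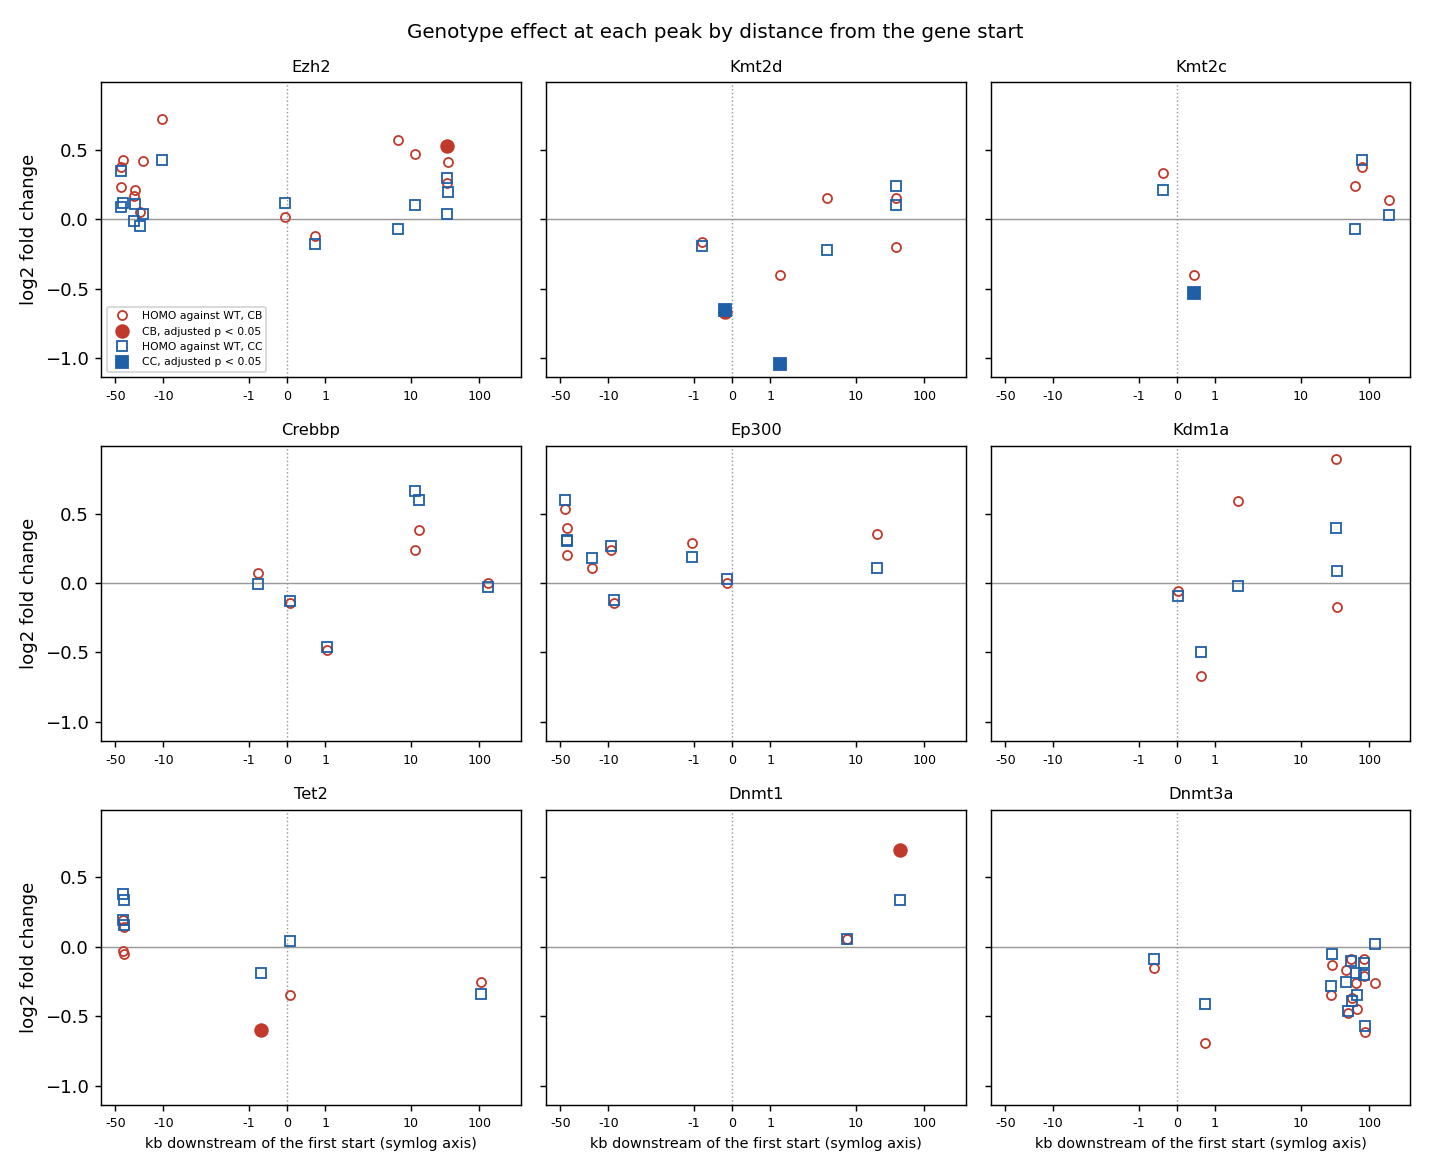
Log2 fold change of HOMO against WT (vertical axis) at each peak by its distance in kb downstream of the first annotated start (horizontal axis, symlog) for 9 genes, with CB as red circles and CC as blue squares and called peaks filled. Within 1 kb of the starts of Kmt2d, Kmt2c, Kdm1a, Tet2 and Dnmt3a some points lie near or below -0.5. Most Ezh2 and Ep300 peaks lie above 0, and all Dnmt3a peaks in CB lie below 0.

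Within starts, the genotype difference went with how open the peak was. The 7 member start peaks under 20 CPM on average had log2 fold changes of -0.69 to -0.09 in CB (median -0.61), while the 12 at 20 CPM and over had -0.35 to 0.33 (median -0.09). In CC the medians were -0.50 and -0.05. The 20 CPM limit was chosen after these values were seen. Start peaks of all genes had the same order, with medians of -0.33 (5514 peaks, 18.4% lower) and -0.06 (7716 peaks, 4.45% lower) in CB, and -0.31 and -0.01 in CC. Across levels, 2 of 19 member start peaks were called lower in CB, 10.5%, against 10.3% of all start peaks. In CC they were 2 of 19 as well, against 6.3%. Of the 48 member peaks that lay inside genes or outside them, away from starts and ends, 2 were higher and 0 lower in CB (11 higher and 1 lower at an unadjusted p under 0.05), with a median of 0.19. Of the 45788 such peaks of all genes 0.946% were higher and 1.86% lower (4001 higher and 3368 lower at an unadjusted p under 0.05), with a median of 0.06.

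Kdm1a, the histone demethylase also known as LSD1, had 1 of these weaker start peaks, 637 bp from its start (chr4:136601836-136602336), named here after its values were seen because DESeq2 called it. It had 13.5, 8.79 and 7.87 CPM in HOMO CB, against 18.7, 14.1 and 13.2 CPM in WT CB, and the ranges overlapped through HOMO CB 1. It differed by -0.67 on the log2 scale in CB (SE 0.20, edgeR adjusted p = 0.0552, DESeq2 adjusted p = 0.0351) and -0.50 in CC (SE 0.20, edgeR adjusted p = 0.191). The peak at the Kdm1a start, 20 bp away (chr4:136602453-136602953), averaged 25.8 ± 2.48 CPM in HOMO CB and 27.0 ± 4.42 CPM in WT CB (SD, n = 3 each), with a difference of -0.06 (SE 0.12, adjusted p = 0.838). The strongest Kdm1a peak away from starts, 1595 bp from the start (chr4:136600878-136601378), had 4.19, 5.53 and 5.07 CPM in HOMO CB against 3.61, 3.78 and 2.82 CPM in WT CB. These did not overlap, and the difference of 0.59 did not pass the test (SE 0.23, adjusted p = 0.159), nor did -0.02 in CC (adjusted p = 0.977). Hdac3, the deacetylase of the NCoR and SMRT corepressors, had a single peak on chromosome 18. It had 30.0, 27.2 and 29.6 CPM in HOMO CB, against 34.0, 32.0 and 33.2 CPM in WT CB. These did not overlap, but the difference of -0.20 did not pass the test (SE 0.10, adjusted p = 0.269), nor did -0.14 in CC (SE 0.10, adjusted p = 0.528).

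Crebbp, the acetyltransferase paired with Ep300, had no called peak in either genotype comparison. Its strongest start peak (chr16:4213918-4214418) averaged 35.9 ± 3.61 CPM in HOMO CB and 34.3 ± 5.14 CPM in WT CB (SD, n = 3 each). In CC the means were 34.8 ± 1.91 CPM in HOMO libraries and 35.0 ± 5.72 CPM in WT libraries. The differences were 0.07 (SE 0.13, adjusted p = 0.824) and -0.01 (SE 0.13, adjusted p = 0.983). Its 6 peaks had log2 fold changes of -0.48 to 0.38 in CB and -0.46 to 0.66 in CC. The lowest in both was a weak peak 1043 bp from the start (chr16:4212111-4212611), with 2.23, 4.18 and 3.12 CPM in HOMO CB against 4.98, 6.07 and 3.38 CPM in WT CB.

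Dnmt3a, which lays down new DNA methylation, differed in the same direction at nearly all of its 14 peaks without a single call in the main test. With log2 library total as a covariate or the replicate block, some were called lower in both populations. With the covariate, a peak 368 bp from a start (chr12:3891862-3892362) fell by 0.52 in CB (edgeR adjusted p = 0.0216) and by 0.53 in CC (adjusted p = 0.0267). With the block it fell by 0.58 (adjusted p = 0.0254) and by 0.55 (adjusted p = 0.0415). All 14 had negative log2 fold changes in CB (-0.69 to -0.09, median -0.26), and 13 of 14 in CC (-0.57 to 0.02, median -0.23). These peaks share the same libraries and are not independent. Of all 68689 peaks, 33661 were negative in CB and 31806 in CC. DESeq2 called 1 of them in both populations, a peak inside the gene 35867 bp from the nearest start (chr12:3855627-3856127), named after its values were seen. It had 15.5, 12.9 and 13.2 CPM in HOMO CB, against 20.8, 19.6 and 16.9 CPM in WT CB. In CC it had 14.9, 16.6 and 15.6 CPM in HOMO libraries and 22.9, 24.3 and 18.2 CPM in WT libraries. HOMO lay below WT without overlap in both, by -0.48 (SE 0.14, edgeR adjusted p = 0.053, DESeq2 adjusted p = 0.0295) in CB and by -0.46 (SE 0.14, edgeR adjusted p = 0.0774, DESeq2 adjusted p = 0.0416) in CC. At the strongest Dnmt3a start peak (chr12:3891180-3891680) HOMO CB had 24.2, 22.4 and 25.5 CPM and WT CB 28.3, 23.5 and 30.8 CPM (-0.21, adjusted p = 0.354). The strongest one away from starts, 20758 bp from the nearest start (chr12:3870736-3871236, 27.5 CPM on average), had 18.7, 23.6 and 25.2 CPM in HOMO CB and 26.4, 23.4 and 31.9 CPM in WT CB, which overlapped (-0.26, SE 0.17, adjusted p = 0.412).

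Ezh2 and Ep300 leaned the other way. At Ezh2 14 of 15 peaks had positive log2 fold changes in CB (median 0.38) and 11 of 15 in CC (median 0.10), and at Ep300 8 of 9 in both (medians 0.24 and 0.19). Of all 68689 peaks 35028 were positive in CB and 36883 in CC, and the peaks of a gene are not independent. The Ep300 peak 1057 bp upstream of the start had 47.0, 48.3 and 43.4 CPM in HOMO CB, against 35.7, 36.3 and 41.2 CPM in WT CB. The groups did not overlap, and the difference of 0.29 did not pass the test (SE 0.11, adjusted p = 0.123). The Ep300 peak 9005 bp upstream had 48.1, 39.5 and 42.8 CPM in HOMO CB, against 35.0, 41.8 and 33.4 CPM in WT CB, which overlapped (0.24, SE 0.12, adjusted p = 0.245). The Ezh2 peak 41615 bp upstream had 39.7, 36.6 and 39 CPM in HOMO CB and 32.4, 37.8 and 28.8 CPM in WT CB (0.23, SE 0.11, adjusted p = 0.244).

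The difference of the genotype effects between CC and CB was tested directly. No member peak was called, as in the whole table, where 0.0% of peaks and 0.0% of gene sums were. DESeq2 also called 0. Over all peaks 416 were higher and 394 lower at an unadjusted p under 0.05. Among the member peaks 0 were higher and 1 lower at that limit. That one was the Kmt2d peak 1254 bp from the start, at -0.64 (SE 0.28, unadjusted p = 0.0314, adjusted p = 1.0). So the Tet2, Kmt2c, Ezh2 and Dnmt1 calls made in 1 population are not shown to differ between the populations. For the Tet2 peak 674 bp upstream of the start the difference of effects was 0.41 (SE 0.20, unadjusted p = 0.0585).

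Summed over all peaks of a gene, 3 of the 10 genes differed between HOMO CB and WT CB. Sums are CPM of the counts in peaks assigned to genes. Ezh2 had 251, 251 and 249 CPM in HOMO CB, against 210, 222 and 212 CPM in WT CB, and rose by 0.23 (SE 0.06, edgeR adjusted p = 0.0298). Ep300 had 216, 219 and 221 CPM in HOMO CB, against 181, 198 and 184 CPM in WT CB, and rose by 0.22 (SE 0.06, adjusted p = 0.0332). Dnmt3a had 161, 149 and 148 CPM in HOMO CB, against 187, 172 and 171 CPM in WT CB, and fell by 0.22 (SE 0.06, adjusted p = 0.0479). The groups did not overlap at any of these 3 genes. Among the 14134 genes with a peak, 2.37% rose and 4.63% fell in CB. In CC none of the 10 was called, where 1.05% of genes rose and 3.07% fell. At an unadjusted p under 0.05, 2 of the 10 were higher and 2 lower in CC. The share of all genes at that unadjusted limit was not counted, so these counts have nothing to be read against. Dnmt3a had 179, 183 and 183 CPM in HOMO CC, against 209, 228 and 200 CPM in WT CC, also without overlap (-0.22, SE 0.06, adjusted p = 0.0564).

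The Ezh2 sum in CB lost its call without HOMO CB 1, HOMO CB 2, HOMO CB 3, WT CB 1 or WT CB 3 (adjusted p = 0.0569 to 0.122), and without both WT libraries numbered 2. The Ep300 sum lost it without any of the same 5 single libraries (adjusted p = 0.0525 to 0.137). The Dnmt3a sum lost it without HOMO CB 2, HOMO CB 3, HOMO CC 2, HOMO CC 3, WT CB 1, WT CB 2 or WT CC 1 (adjusted p = 0.0568 to 0.197), without both WT libraries numbered 2, and with DESeq2 size factors in place of TMM. With sums over start and gene-end peaks alone none of the 3 was called. Of the summed counts, start and end peaks gave 40.7% at Ezh2, 28.5% at Ep300 and 40.9% at Dnmt3a.

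**Figure D4:**
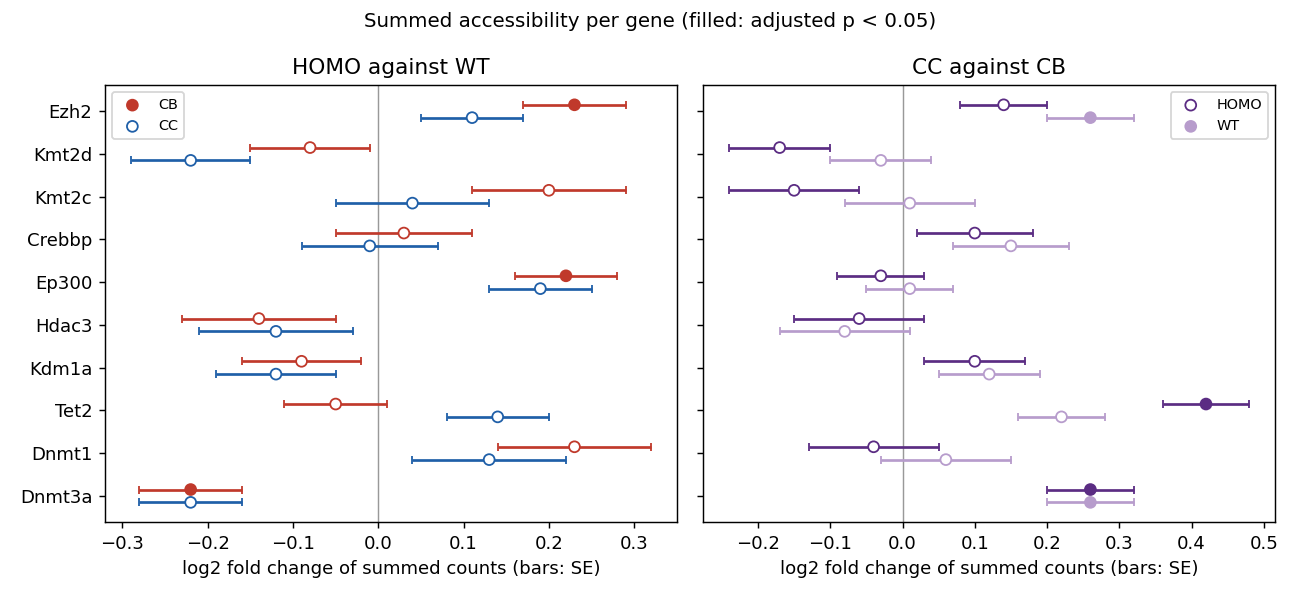
Log2 fold change of the summed counts of each gene (horizontal axis) with its standard error as a bar, for HOMO against WT in CB and CC on the left and CC against CB in HOMO and WT on the right, with called genes filled. Ezh2 and Ep300 in CB lie above 0 and Dnmt3a lies at -0.22 in both populations on the left, and Tet2 in HOMO reaches 0.42 on the right.

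The second comparison set CC against CB within each genotype. No member peak fell in either genotype. In HOMO 8 peaks rose, 4 at Tet2, 2 at Dnmt3a and 1 each at Kdm1a and Ezh2, where 4.78% of all peaks rose and 2.44% fell. In WT 5 rose, 2 at Ezh2 and 1 each at Tet2, Kdm1a and Dnmt3a, where 3.35% of all rose and 2.08% fell. At an unadjusted p under 0.05, 17 member peaks were higher and 2 lower in HOMO, and 16 higher and 0 lower in WT, where over all peaks 8015 were higher and 5430 lower in HOMO, and 7333 higher and 6332 lower in WT. DESeq2 called 8 higher and 0 lower in HOMO (5.2% and 3.04% of all peaks) and 7 higher and 0 lower in WT (4.05% and 2.59%). Same-numbered CB and CC libraries of a genotype varied together (correlations of 0.206 to 0.518 in 6 pairs). With the replicate number as a block, 20 rose and 2 fell in HOMO, where 12.5% of all peaks rose and 9.68% fell, and 18 rose and 0 fell in WT, where 10.4% rose and 11.8% fell. Some peaks were called in both genotypes only with the block. An Ezh2 peak 26123 bp upstream rose by 0.63 in HOMO and 0.72 in WT (edgeR adjusted p = 4.06e-07 and 1.07e-07). An Ep300 peak 39670 bp upstream rose by 0.61 and 0.45 (adjusted p = 5.12e-05 and 0.00629). A Crebbp peak 475 bp beyond the far gene end rose by 0.44 and 0.46 (adjusted p = 0.00159 and 0.00194). The HOMO and WT comparisons set different libraries against each other, but the spread in both was estimated from all 12 libraries. The genotype and population comparisons do share libraries. Without HOMO CB 3 or without HOMO CC 2 the count in HOMO was 4, without WT CB 1 the count in WT was 3, and without both WT libraries numbered 2 it was 2. Over all peaks the number of higher peaks in HOMO was 3284 with all libraries, 1548 without HOMO CB 3 and 1336 without HOMO CC 2. In WT it was 2301 with all libraries, 830 without WT CB 1 and 333 without both WT libraries numbered 2.

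Most of these peaks were distal and weak. The largest fold was at a peak inside Kdm1a, 32748 bp from its start (chr4:136569725-136570225). It had 4.44, 2.53 and 4.91 CPM in HOMO CC, against 0.917, 0.678 and 0.964 CPM in HOMO CB. In WT it had 2.79, 2.05 and 3.91 CPM in CC, against 0.195, 0.0 and 0.829 CPM in CB. CC lay above CB without overlap in both genotypes. The underlying counts were 30, 68 and 186 in HOMO CC and 7, 25 and 43 in HOMO CB, and 36, 34 and 118 in WT CC and 4, 0 and 25 in WT CB. It rose by 2.21 in HOMO (SE 0.44, edgeR adjusted p = 0.00393) and by 2.71 in WT (SE 0.49, adjusted p = 0.00345). Both calls held without any 1 library, while the WT value ran from 2.33 to 4.42.

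An Ezh2 peak inside the gene, 35018 bp from the start (chr6:47559762-47560262), had 15.4, 16.9 and 15.3 CPM in HOMO CC, against 6.16, 7.68 and 9.35 CPM in HOMO CB. In WT it had 15.4, 14.9 and 11.5 CPM in CC, against 4.93, 6.76 and 6.47 CPM in CB. No CC library of either genotype overlapped its CB group. It rose by 1.00 in HOMO (SE 0.17, adjusted p = 0.00128) and by 1.21 in WT (SE 0.18, adjusted p = 0.000693), and both calls held without any 1 library. This site lies next to the Ezh2 peak that rose in HOMO CB. A weaker Ezh2 peak 19450 bp upstream of the start (chr6:47614230-47614730) rose by 0.92 in WT (SE 0.26, adjusted p = 0.0424), with 2.64, 4.27 and 3.05 CPM in CC against 1.51, 1.83 and 1.92 CPM in CB. That call was lost without any of HOMO CB 2, HOMO CB 3, HOMO CC 2, WT CB 1, WT CB 2, WT CB 3, WT CC 2 and WT CC 3 (adjusted p = 0.0554 to 0.212), and without both WT libraries numbered 2 (adjusted p = 0.307). In HOMO the difference there was 0.54 (SE 0.25, adjusted p = 0.227).

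Tet2 rose at 4 of its 7 peaks in HOMO, and all 7 had positive log2 fold changes in both genotypes (medians 0.52 in HOMO and 0.14 in WT). Of all 68689 peaks 33817 were positive in HOMO and 31754 in WT, and the peaks of a gene are not independent. The peak 674 bp upstream of the start, lower in HOMO CB, had 20, 16.8 and 18.1 CPM in HOMO CC against 8.64, 11.7 and 11.2 CPM in HOMO CB. It rose by 0.75 in HOMO (SE 0.15, adjusted p = 0.0029), a call that held without any 1 library. In WT it had 19.6, 20.5 and 22.0 CPM in CC against 14.2, 19.1 and 16.1 CPM in CB, and the difference of 0.34 did not pass the test (SE 0.14, adjusted p = 0.176) although the groups did not overlap. With the replicate block this WT difference was called (0.35, adjusted p = 0.00982). At the start itself HOMO CC had 32.2, 26.3 and 21.8 CPM and HOMO CB 19.4, 19.6 and 16.3 CPM, a rise of 0.52 (SE 0.15, adjusted p = 0.0372) that was lost without HOMO CB 1, HOMO CB 2, HOMO CB 3, HOMO CC 1, HOMO CC 2 or WT CB 1 (adjusted p = 0.0551 to 0.198), and without both HOMO libraries numbered 1 or both WT libraries numbered 2. A peak 37843 bp upstream (chr3:133581983-133582483) had 12.3, 14.4 and 12.3 CPM in HOMO CC against 8.51, 8.49 and 8.95 CPM in HOMO CB. It rose by 0.59 (SE 0.16, adjusted p = 0.0224), lost without HOMO CB 2, HOMO CB 3 or HOMO CC 2 (adjusted p = 0.0748 to 0.153).

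The fourth Tet2 site lay 26551 bp beyond the far end of the gene (chr3:133436876-133437376). It had 0.592, 4.62 and 3.12 CPM in HOMO CC, against 1.05, 1.11 and 0.718 CPM in HOMO CB. In WT it had 4.73, 3.37 and 3.78 CPM in CC, against 0.781, 1.15 and 1.36 CPM in CB. HOMO CC 1, with 4 counts there, lay below every HOMO CB library, while the WT groups did not overlap. It rose by 1.73 in HOMO (SE 0.41, adjusted p = 0.0126) and by 1.83 in WT (SE 0.41, adjusted p = 0.0127). The HOMO call was lost without HOMO CB 3 or HOMO CC 2 (adjusted p = 0.0973 and 0.135). The WT call was lost without WT CB 1 (adjusted p = 0.0887) or both WT libraries numbered 2 (adjusted p = 0.0951).

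Dnmt3a rose inside the gene, 18724 bp from the nearest start (chr12:3872770-3873270). That peak had 7.25, 6.07 and 5.76 CPM in HOMO CC, against 2.36, 2.71 and 2.24 CPM in HOMO CB. In WT it had 8.23, 8.49 and 7.29 CPM in CC, against 3.61, 1.83 and 4.08 CPM in CB. The groups did not overlap, with a rise of 1.35 in HOMO (SE 0.23, adjusted p = 0.00124) and of 1.25 in WT (SE 0.23, adjusted p = 0.00297). Both held without any 1 library, and the WT call was lost without both WT libraries numbered 2 (adjusted p = 0.0563). A second site 27416 bp from the nearest start (chr12:3834326-3834826) had 18, 16.4 and 16.0 CPM in HOMO CC against 14.0, 10.1 and 9.62 CPM in HOMO CB, a rise of 0.62 (SE 0.18, adjusted p = 0.0345). This call was lost without HOMO CB 2, HOMO CB 3, HOMO CC 1, HOMO CC 2 or HOMO CC 3 (adjusted p = 0.0651 to 0.187), and without both WT libraries numbered 2. The WT difference there, 0.54, did not pass the test (SE 0.17, adjusted p = 0.0692), and passed it with the replicate block (0.55, adjusted p = 5.51e-05).

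**Figure D5:**
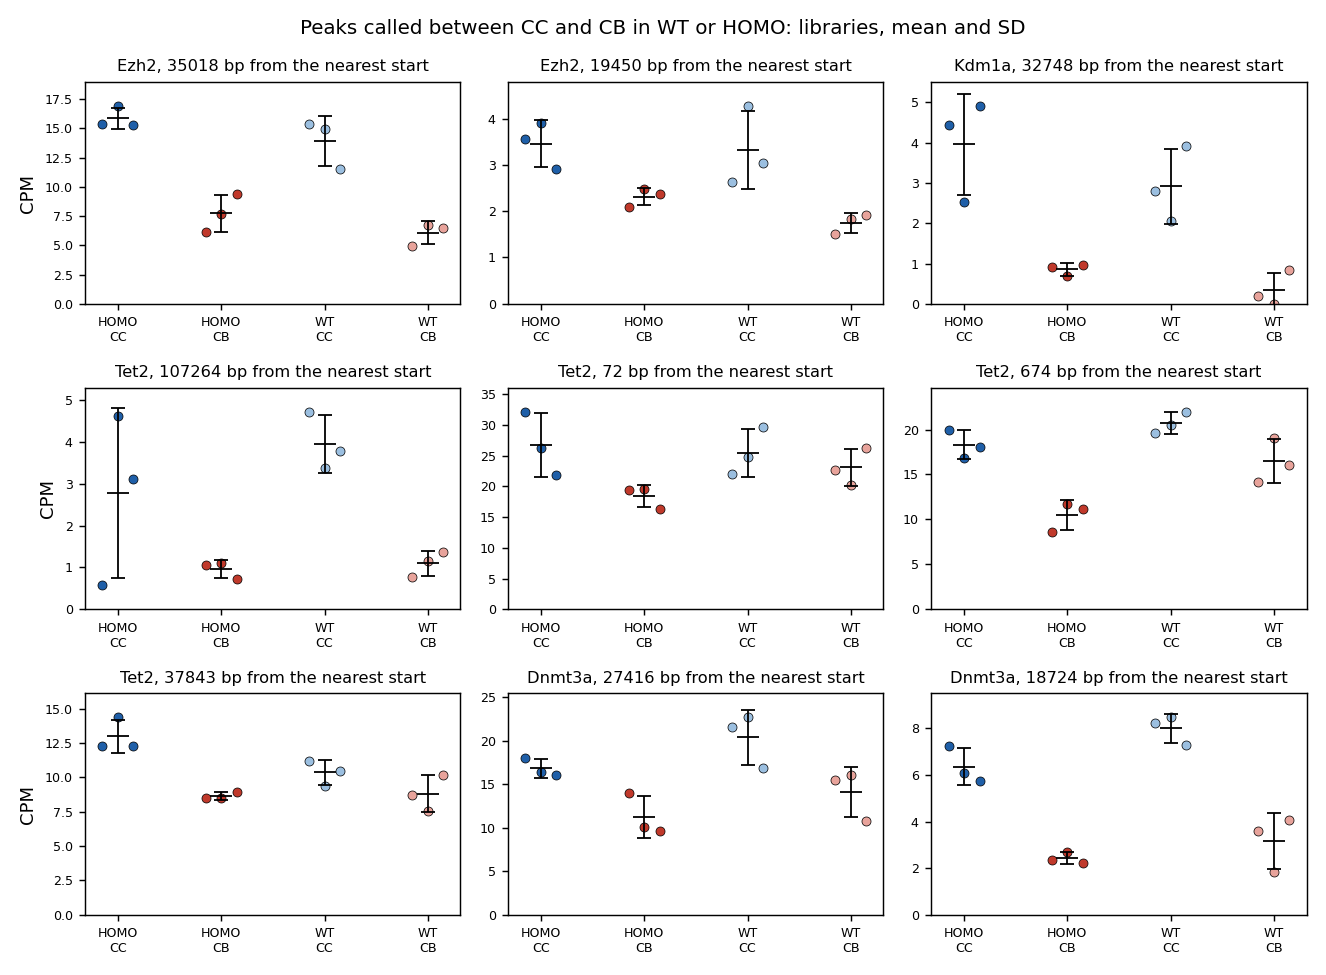
CPM (vertical axis, from 0) at the 9 peaks called between CC and CB in HOMO or WT, with 1 point per library, the mean as a dash and the SD as a bar. CC points lie above CB points in both genotypes at the Kdm1a peak and at the Ezh2 peak 35018 bp from the start, and at the Tet2 peak 107264 bp from the start 1 HOMO CC library lies at the CB level.

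At Kmt2d 5 of 6 peaks had lower values in HOMO CC than in HOMO CB, and at Kmt2c all 5. Of all 68689 peaks 34872 were lower in that comparison, and the peaks of a gene are not independent. With the replicate block the Kmt2d peaks 3741 and 1254 bp from the start fell by 0.33 (adjusted p = 0.00588) and by 0.47 (adjusted p = 0.0235) in HOMO. Without the block the first had 16.1, 18.9 and 18.6 CPM in HOMO CC against 24.4, 21.2 and 23.8 CPM in HOMO CB, without overlap (-0.35, SE 0.13, adjusted p = 0.116). The starts of Ezh2, Ep300, Crebbp, Kdm1a and Dnmt1 had CC against CB differences of -0.14 to 0.03 at their strongest peak, none called. Crebbp differed most away from its start, with 0.89 in HOMO and 0.67 in WT at a peak 13226 bp downstream of the start. That peak was not called in the main test. In HOMO it was called with the block (0.95, adjusted p = 0.00347) and with log2 library total as a covariate (0.90, adjusted p = 0.0251). It was also called there without HOMO CB 2 (1.25, adjusted p = 0.042).

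By gene sum, Tet2 and Dnmt3a rose in HOMO and Ezh2 and Dnmt3a rose in WT. Tet2 had 150, 150 and 135 CPM in HOMO CC, against 101, 115 and 107 CPM in HOMO CB, a rise of 0.42 (SE 0.06, edgeR adjusted p = 0.000716). In WT it had 128, 132 and 133 CPM in CC against 111, 112 and 113 CPM in CB, without overlap, but 0.22 did not pass the test (SE 0.06, adjusted p = 0.0541). The Tet2 call in HOMO held without any 1 library and without both WT libraries numbered 2. Dnmt3a had 179, 183 and 183 CPM in HOMO CC against 161, 149 and 148 CPM in HOMO CB (0.26, SE 0.06, adjusted p = 0.0237), and 209, 228 and 200 CPM in WT CC against 187, 172 and 171 CPM in WT CB (0.26, SE 0.06, adjusted p = 0.0272). Ezh2 had 249, 257 and 264 CPM in WT CC against 210, 222 and 212 CPM in WT CB (0.26, SE 0.06, adjusted p = 0.018). Over all genes 3.18% rose and 1.75% fell in HOMO, and 2.77% rose and 0.969% fell in WT.

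The Dnmt3a sum lost its call in HOMO without HOMO CB 2, HOMO CB 3, HOMO CC 2 or HOMO CC 3 (adjusted p = 0.0664 to 0.12), and in WT without WT CB 2, WT CB 3, WT CC 1 or WT CC 2 (adjusted p = 0.0753 to 0.178), and without both WT libraries numbered 2. The Ezh2 sum in WT lost it without WT CB 1 or WT CC 2 (adjusted p = 0.0781 to 0.0883), and without both WT libraries numbered 2. With the replicate block, 3 sums rose in HOMO (Tet2, Dnmt3a and Ezh2) and 2 fell (Kmt2d and Kmt2c), where 11.7% of genes rose and 10.4% fell. In WT 4 rose (Ezh2, Tet2, Dnmt3a and Crebbp) and 0 fell, where 11.6% rose and 9.16% fell. The difference of the genotype effects at Tet2 was 0.20 on the sum (unadjusted p = 0.0399) and was not called.

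Genes that work with these enzymes were described in the same way from lists of 73 genes, of which 69 had a peak and together 559 peaks. In CB 4 of these peaks rose and 12 fell (median log2 fold change 0.04), and in CC 0 rose and 11 fell (median 0.06). Over all peaks 0.779% rose and 3.85% fell in CB, and 0.578% rose and 2.17% fell in CC. Histone deacetylase and LSD1 corepressor genes held most of them, with 2 higher and 9 lower of 146 in CB and 0 higher and 8 lower in CC. A peak 557 bp from the start of Sin3b, a scaffold of deacetylase complexes, had 4.99 ± 0.823 CPM in HOMO CB and 10.3 ± 1.22 CPM in WT CB (SD, n = 3 each). It fell by 1.09 (SE 0.20, adjusted p = 0.00482). Several lower peaks of this list lay at 1 gene, Gfi1. The Gfi1 peak 324 bp from its start fell by 0.49 in CB (edgeR adjusted p = 0.0346) and by 0.63 in CC (adjusted p = 0.0168). The Gfi1 peak 519 bp from the start fell by 0.69 (adjusted p = 0.0154) and by 0.67 (adjusted p = 0.0277). Another, 29180 bp from the nearest start, fell by 0.90 in CB (adjusted p = 0.0112). Among 9 other acetyltransferase genes 2 of 100 peaks fell in both populations, 1 each near the starts of Ncoa1 and Kat6b. The Ncoa1 peak had 22.4 ± 2.4 CPM in HOMO CB and 32.4 ± 1.43 CPM in WT CB (SD, n = 3 each, -0.55, adjusted p = 0.00929).

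Partners of PRC2 and its opposing demethylases had 1 higher and 0 lower of 102 in CB and 0 in CC. The one that rose lay 15653 bp from Mtf2, which helps recruit PRC2, with 56.1 ± 4.95 CPM in HOMO CB and 38.9 ± 3.81 CPM in WT CB (SD, n = 3 each, 0.54, adjusted p = 0.0106). Of 56 peaks at DNA methylation partners 1 fell in CB, 801 bp from the start of Dnmt3b, with 5.88 ± 1.34 CPM in HOMO CB and 11.3 ± 1.74 CPM in WT CB (SD, n = 3 each, -1.0, adjusted p = 0.0131). None of 47 peaks at COMPASS partners and other KMT2 genes was called. Other chromatin genes mutated in B cell lymphoma had 1 higher peak of 119 in CB, inside Ino80, and 1 lower in CC, at the start of Chd8. Between CC and CB, the 559 peaks had 13 higher and 16 lower in HOMO, where 4.78% of all peaks were higher and 2.44% lower, and 11 higher and 15 lower in WT, where 3.35% were higher and 2.08% lower.

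For each of the 10 genes the gene whose summed profile lay nearest over the 12 libraries was looked up, by the root mean square difference of log2 CPM centred on each gene's mean, among 7878 genes outside the 10 with at least 3 peaks and a mean log2 CPM of the sum of at least 3. Ep300 lay nearest to Cebpb (0.029), Hdac3 to Ppp1r8 (0.034), Dnmt1 to Rev3l (0.036), Kdm1a to Dll1 (0.038) and Crebbp to Vac14 (0.043). Kmt2d lay nearest to Camk2g (0.044), Ezh2 to Armc9 (0.045), Dnmt3a to Sh2d6 (0.048), Kmt2c to Eif4a1 (0.054) and Tet2 to Tigit (0.065). The median difference from all candidate genes was 0.154 for Kdm1a, the lowest, and 0.222 for Dnmt3a, the highest. Each gene's distance from a flat profile was also under its median, from 0.082 for Kdm1a to 0.18 for Tet2. A gene without any change would therefore also lie nearer than the median candidate. The profiles share library and depth.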

How the data were processed

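Omni-ATAC-seq libraries of sorted mouse splenic germinal center B cells were analysed, 12 in 4 groups of 3. The deposited values are raw read counts per peak made by the authors on mm10, in 68689 peaks of 501 bp. The submitters' processing notes name FastQC, BWA, deepTools and R 4.2.1 but give no role for any. Which tools called peaks and counted reads, how duplicates and the Tn5 cut offset were handled, and whether libraries were pooled first: not given in the sources used here. Duplicates left in, or peaks called on pooled libraries, could change levels and which weak sites are listed.

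Groups and replicate numbers came from the labels. Peaks were assigned to the nearest of 21031 protein-coding RefSeq gene spans (GRCm38.p6) within 50 kb, which placed 63977 peaks at 14134 genes. Promoter windows came from RefSeq (9 of the 10 genes matched). TMM-normalized counts were tested with edgeR 4.0.16 in R 4.3.3 (robust quasi-likelihood F tests, two-sided, 1 mean per group over all 12 libraries), with p-values adjusted over all peaks or all genes. The filter filterByExpr removed 0 peaks. The common biological coefficient of variation was 0.142 and log2 fold changes in CB had a median standard error of 0.2. The script was tested on simulated data. Alternatives were DESeq2 1.42.0, DESeq2 size factors, a stricter filter (2 CPM in 3 libraries), the replicate number as a block, log2 library total as a covariate, a 10 kb window, gene-end peaks only, and libraries left out.

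Same-numbered CB and CC libraries of a genotype correlated in their deviations from group means at 0.206 to 0.518 (6 pairs), against -0.343 to 0.125 for different numbers, so the numbers pair the CB and CC libraries. The main test has no block, so its adjusted p-values for CC against CB leave this pairing out. Blocked counts stand beside CC against CB, and the block called more peaks there. The numbers come from the sample titles. Same-numbered HOMO and WT libraries of a population correlated at -0.011 to 0.399, against -0.305 to 0.18 for different numbers. They were not treated as pairs in the main test.

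For each gene the strongest start and non-start peak and up to 3 called peaks of smallest p per comparison were named, with up to 2 called peaks of smallest p per genotype comparison in each related list. The genes, lists, motifs and tests were chosen with earlier results of these data known.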

Additional observations from a re-analysis of the deposited data

How the results depend on the processing

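No direction of a called value reversed under any alternative run. The stricter filter moved no count of member calls by over 1.5 times. In CB, lower peaks numbered 4 with DESeq2, 8 with log2 library total as a covariate, and 5 with the HOMO libraries numbered 1 removed; over all peaks they numbered 2643 in the main test, 3327 with DESeq2, 5902 with the covariate, 4762 with the replicate block and 3986 with those HOMO libraries removed. Removing the WT libraries numbered 2, an alternative chosen after seeing the data, left 0 lower and 1 higher peak in CB, 1 higher and 0 lower sums in CB, and 0 sums for CC against CB in WT. Over all peaks that run left 1406 lower and 254 higher in CB. With the covariate, CC had 2 higher and 5 lower, where over all peaks 1860 were higher and 3922 lower. CC against CB had 13 higher and 1 lower in HOMO and 11 higher in WT with the covariate. Over all peaks these counts were 5688 higher and 3305 lower in HOMO, and 4447 higher and 3411 lower in WT. Without both WT libraries numbered 2, CC had 0 lower and CC against CB in WT 2 higher, and with spans within 10 kb the WT count was 3. Over all peaks, removing those WT libraries left 244 lower in CC and 333 higher for CC against CB in WT. For HOMO against WT, the replicate block gave 6 lower in CB, 6 lower in CC, and sums in CC with 1 higher and 2 lower. Over all peaks the block gave 3352 lower in CC. Same-numbered HOMO and WT libraries of a population correlated at -0.011 to 0.399, against -0.305 to 0.18 for different numbers. What they share was not tested. For CC against CB, the replicate block gave 20 higher and 2 lower in HOMO and 18 higher in WT, and sums with 2 lower in HOMO and 4 higher in WT. It changed the call of no peak or sum that was called without it. DESeq2 size factors left 0 lower sums in CB, and gene-end peaks only left 0 higher and 0 lower in CB, 1 higher in HOMO and 0 in WT for CC against CB. The causes were not tested.

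With 1 library left out at a time, peaks in CB ranged from 0 to 2 higher and 0 to 5 lower and sums from 0 to 2 and 0 to 1. In CC lower peaks ranged from 0 to 4 and lower sums from 0 to 2. CC against CB ranged from 4 to 9 higher peaks and 1 to 2 higher sums in HOMO, and 3 to 6 and 0 to 3 in WT. Leaving out a library leaves a group of 2, with fewer residual degrees of freedom. Depth limits the weakest sites, such as the Kdm1a peak with 0 counts in WT CB 2.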
